A study of Mus musculus with 10 samples.

Results

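The genes of glucose breakdown in the left ventricle were examined as 1 pathway of 32 genes, from the glucose transporters through glycolysis and lactate dehydrogenase to the entry of pyruvate into mitochondria and the pyruvate dehydrogenase complex, together with the fructose bisphosphatase of muscle. The genes were chosen by name and not by a rule on their expression, though with earlier results of these data known. All 32 were found among the 29564 genes listed, had a TPM above 0 in at least 9 of the 10 mice and entered the test of 13299 genes. In HFD+mTAC hearts 1 of them, Fbp2, was 1.70-fold higher than in controls and passed the test across all genes. None of the other 31 did.

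Left ventricles of 5 control mice and 5 HFD+mTAC mice were compared. All 10 were wild-type mice, C57BL6 in the labels and C57BL/6J males in the study's methods, and the labels give vehicle as the treatment of both groups. The dosing text of the labels, 10 mL/kg once a day over 6 to 9 weeks, names HFD+mTAC mice, and whether the controls were dosed in the same way is not stated there. The study also describes RNA-seq after a single dose, so that the duration given here rests on the labels. HFD+mTAC mice were fed a high-fat diet with 60% of kilocalories from fat and had a moderate transverse aortic constriction at 11 weeks of age, a surgical narrowing of the aorta that loads the left ventricle with pressure, with 16 weeks of induction. Control mice had neither the operation nor this diet and were fed chow with 10% of kilocalories from fat. Since the RNA-seq groups differ in diet and operation at once, the parts of the diet and of the operation cannot be told apart. The comparison asks how the transcripts of glucose metabolism differ in a heart under metabolic and mechanical load, as the study's model of heart failure in which ejection fraction stays normal.

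The adult heart takes most of its energy from fatty acids and oxidizes glucose and lactate beside them. Glucose enters the cardiomyocyte through GLUT4 and GLUT1, is trapped by hexokinases, is committed to breakdown at the phosphofructokinase step and yields pyruvate, which is either exchanged with lactate or carried into mitochondria and oxidized by the pyruvate dehydrogenase complex. Kinases switch this complex off and phosphatases switch it on. Several steps are shared by isoenzymes, of which the heart and skeletal muscle use particular ones.

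Counts are given as CPM, estimated counts scaled with edgeR's TMM factors to a common total over the tested protein-coding genes, for comparing mice. Levels of different genes are compared only as TPM, which is corrected for transcript length. Totals were 34.2 to 53.7 M estimated counts per mouse, of which 43.8 to 52.7% lay on mitochondrially encoded genes. The 8 cardiomyocyte markers were all present, with a summed TPM of 19189 to 24375 in control mice and 16830 to 20365 in HFD+mTAC mice. All 8 had a log2 fold change below 0, with a median of -0.21, and none passed the test. An unadjusted p under 0.05 was found for 2 of the 8, where 8.26% of all genes tested had one. The lowest of the 8 in level were Ryr2 at 4.26 to 9.34 TPM and Myh6 at 17.7 to 37.1 TPM. Myh6 encodes the main myosin heavy chain of the adult mouse ventricle and is usually among its most abundant transcripts, so that its level here is unusual beside Myl2 at 6934 to 9942 TPM. The reason was not tested, and TPM levels of different genes are to be read with that in view. The 6 adipocyte markers summed to at most 0.277 TPM in any mouse, and Ucp1 was at 0 in all. Fast skeletal muscle markers were at or near 0, apart from Mylpf at up to 16.9 TPM. The skeletal muscle list as a whole summed to 14.5 to 35.3 TPM in control mice, highest in TT-587, and to 9.79 to 24.1 TPM in HFD+mTAC mice. Of its 10 genes 5 were tested, all 5 with a log2 fold change below 0 (median -0.68), 1 with an unadjusted p under 0.05 and none with a call. The shifts of the cardiomyocyte and skeletal muscle lists go the same way as the lower counts of Eno3 (log2 fold change -0.28) and Ldhb (-0.26). Other muscle forms did not share this: Aldoa (-0.01), Pkm (-0.02), Pfkm (-0.03) and Pgam2 (-0.05) lay near 0, and Fbp2 (0.77) was higher. Whether the shifts of the marker lists play a part in the counts of the pathway was not tested. The part of cell composition in the results below was not tested, and in whole tissue fewer cells of a type and less RNA per cell cannot be told apart.

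The pathway was dominated by few transcripts. Gapdh, Aldoa, Mpc1, Pgam2, Ldhb and Eno3 had the highest mean TPM and together held 76.6% of the summed TPM of the 32 genes. Gapdh stood at 1024 TPM over all mice and Aldoa at 510.2, whereas 7 genes, among them Slc2a1 at 1.75 and Pdp2 at 0.335, had a mean under 5 TPM. The isoforms known from striated muscle were the higher ones at several steps: Pgam2 made up 97.0% ± 0.544 (SD, n = 5) of phosphoglycerate mutase TPM in control mice, Hk2 88.5% ± 1.85 of hexokinase TPM, Eno3 87.0% ± 2.25 of enolase TPM and Ldhb the large majority of lactate dehydrogenase TPM. These shares rest on the deposited lengths, most of all for hexokinase: in counts Hk2 made up 58.4% ± 1.76 (SD, n = 5) of Hk1 and Hk2, against 89.0% ± 0.520 for Pgam2 and 86.1% ± 0.928 for Eno3 in their pairs. The effective length of Hk1 was above its longest annotated transcript in all 10 mice, and that of Hk2 was 633 to 1468 bases where its longest annotated transcript has 5513.

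Of the 32 genes, 26 had a log2 fold change (HFD+mTAC over control) below 0 and 6 above 0. Their median was -0.06, against 0.00 for all genes tested, and 22 lay within 0.2 of 0. The median of their absolute values was 0.13, against 0.12 for all genes. Below 0 were 81.2% of the genes of the pathway and 49.7% of all genes tested. The excess held on the count scale only: with effective transcript lengths as an offset in edgeR, 16 were below 0 and 16 above, and in limma on TPM 15 were below and 17 above.

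In edgeR's quasi-likelihood test with Benjamini-Hochberg adjustment, 1 of the 32 genes had an adjusted p under 0.05, where 0.0602% of all genes tested did (8 of 13299). At an unadjusted p under 0.05, 7 of the 32 passed, where 8.26% of all genes did. Of these 7, Fbp2 and Pfkl were higher, where 4.54% of all genes passed in that direction, and Eno3, Ldhb, Mpc1, Ldha and Slc2a4 were lower, where 3.72% of all genes did. In CPM the mice of the groups did not overlap for 5 of the 32 genes, where 1.96% of all genes were so separated. Fbp2 was the one above, and Eno3, Ldhb, Mpc1 and Slc2a4 were the 4 below, where 0.887% of all genes were apart downwards. In TPM as deposited, no gene of the pathway had groups without overlap, where 0.692% of all genes did. DESeq2 called 0.902% of all genes (120 of 13299) and again only Fbp2 of the 32, with Eno3 next (DESeq2 adjusted p = 0.0741).

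**Figure D1:**
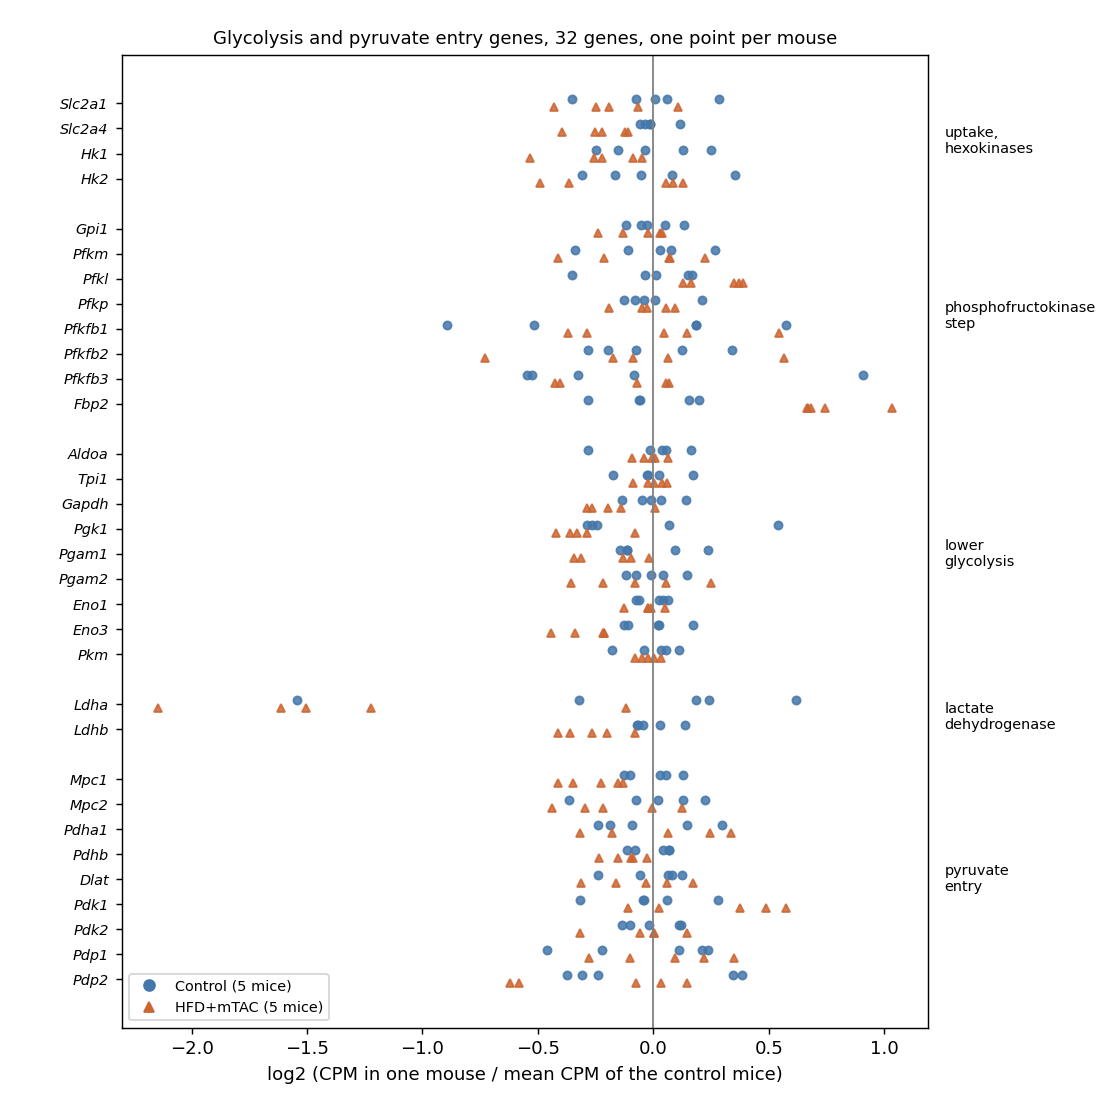
Expression of the 32 genes in each mouse, as the log2 ratio of its CPM to the mean CPM of the control mice (x axis), by step of the pathway (y axis), with circles for the 5 control and triangles for the 5 HFD+mTAC mice. Fbp2 is the gene whose HFD+mTAC mice all lie to the right of the control mice, Ldha has the widest spread in both groups, and most other genes lie around 0.

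The phosphofructokinase step and its control held the one gene that passed. Fbp2 encodes the muscle form of fructose-1,6-bisphosphatase, which runs the phosphofructokinase reaction backwards and takes part in making glycogen from lactate. Fbp2 CPM was 35.3, 42.2, 41.0, 35.2 and 30.3 in the controls (TT-583 to TT-587, in that order here and below). It was 61.7, 75.3, 58.4, 58.6 and 59.1 in the HFD+mTAC hearts (likewise TT-588 to TT-592). The groups did not overlap, and TT-589 was the highest. The group means of Fbp2 were 36.8 ± 4.86 and 62.6 ± 7.21 CPM (SD, n = 5 each), and its log2 fold change of 0.77 had a standard error of 0.11 and passed the test (adjusted p = 0.0289 from edgeR). A two-sided exact permutation test over all arrangements of 5 mice against 5 gave p = 0.00794 for Fbp2 CPM. That is the smallest value the test can give, and it follows from the lack of overlap already stated. Fbp2 was singled out by its result on the same values, and this p is not adjusted for that choice. It therefore adds no separate support to the call.

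On the TPM scale as deposited, not rescaled over the tested genes, the rise of Fbp2 was of similar size with a narrow overlap. Fbp2 TPM was 7.36, 9.12, 6.93, 6.64 and 4.84 in control mice, against 11.3, 11.2, 10.3, 9.10 and 13.3 in HFD+mTAC mice. The highest control mouse, TT-584 at 9.12, stood just above the lowest HFD+mTAC mouse, TT-591 at 9.10 (two-sided exact permutation test, p = 0.0159). This p, too, is not adjusted for the choice of Fbp2 among the genes of the pathway. In TT-584 and TT-591 Fbp2 CPM was 42.2 and 58.6, at effective lengths of 829 and 891 bases. Whether the overlap remains in rescaled TPM was not tested. The effective length of Fbp2 was even, at 747 to 891 bases, and with lengths as an offset its log2 fold change was 0.80 (adjusted p = 0.0844 from edgeR). The call depends on the number of mice and the model: without any 1 mouse other than TT-591 the adjusted p of Fbp2 in edgeR was 0.0553 to 0.104, without TT-591 it was 0.0491, and in limma on log2(TPM + 1) it was 0.104. Its log2 fold change stayed between 0.68 and 0.82 over these omissions.

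Fbp2 lies on the minus strand of chromosome 13 (GRCm38, 62836877 to 62858422). Its promoter is shown as the region just before the start of the one gene of the pathway that passed the test, chr13:62858401-62858650 in RefSeq's GRCm38.p6 table, minus strand, 5′ to 3′, with an E-box (CACGTG) in capitals.
Fbp2: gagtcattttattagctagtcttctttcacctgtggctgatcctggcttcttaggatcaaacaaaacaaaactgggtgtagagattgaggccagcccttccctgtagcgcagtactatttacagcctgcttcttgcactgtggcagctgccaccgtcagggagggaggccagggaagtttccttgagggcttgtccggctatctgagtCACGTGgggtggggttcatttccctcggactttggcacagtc
The E-box begins 42 bases before the RefSeq start. The gene model of GENCODE begins a little further out, inside the window shown. The same letters occur before Pfkm, the muscle phosphofructokinase that Fbp2 opposes, 136 bases before its start (chr15:98092443-98092468, plus strand), and are shown for comparison.
Pfkm: ttaagtatgcCACGTGaagtaagtaa
Promoters were found for 30 of the 32 genes, 49 in all since some genes have several, and each was searched on both strands over 250 bases before the start. CACGTG was present in 7 of the 49 (14.3%), those of Pfkm, Pfkfb2, Pfkfb3, Fbp2, Ldha, Pdk2 and Pdp2, and in 6.02% of 32851 promoters of the table. The shorter ACGTG, which every CACGTG contains, was present in 36.7% of the pathway's promoters and 16.6% of all, GGGCGG in 46.9% and 32.7% and TATAAA in 2.04% and 12.4%. Fbp2 alone of the 32 genes passed the expression test. A link of CACGTG with expression was not tested.

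The enzyme that Fbp2 opposes did not pass the test. Pfkm, the main phosphofructokinase of muscle, had 1170.0, 1286, 1518, 1330.2 and 998 CPM in control mice, against 1327, 1471, 1086, 948 and 1321 in HFD+mTAC mice. These ranges overlap almost fully (log2 fold change -0.03, standard error 0.14, adjusted p = 0.970 from edgeR). Set against Pfkm in the same mouse, Fbp2 stood at 13.4, 14.5, 11.6, 13.3 and 13.8% of Pfkm TPM in control mice and at 20.8, 22.1, 25.6, 26.8 and 20.3% in HFD+mTAC mice. This ratio within a mouse, which does not depend on how the libraries were scaled but does on lengths, separated the groups, with 13.3% ± 1.05 against 23.1% ± 2.92 (SD, n = 5 each, two-sided exact permutation test, p = 0.00794, 0.0873 after adjustment over 11 such shares). In counts, without lengths, the ratio was 2.65 to 3.28% in control and 4.47 to 6.19% in HFD+mTAC mice, again without overlap. Since Pfkm differed little between the groups, the ratio largely restates the difference of Fbp2 in the same mice. The adjustment over 11 shares does not cover the choice of Fbp2 with earlier results known. The ratio therefore adds no separate support to the call.

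Pfkl, the liver form of phosphofructokinase, was the second gene with a higher value. Its CPM was 162, 178, 181, 157 and 126 in control mice, against 210.5, 208, 176, 180.0 and 205 in HFD+mTAC mice. Values of TT-588, TT-589 and TT-592 lay above all control mice and the other two within their range (log2 fold change 0.28, standard error 0.10, adjusted p = 0.468 from edgeR). Pfkp, the platelet form, had a log2 fold change of -0.02, with 70.5 to 89.1 CPM against 67.3 to 82.2.

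The bifunctional enzymes that make and break fructose-2,6-bisphosphate, the activator of phosphofructokinase and inhibitor of fructose bisphosphatase, were low and variable. Pfkfb2, the heart form, had 49.5 to 76.3 CPM in control and 36.4 to 89.2 in HFD+mTAC mice, with log2 fold change -0.01. Pfkfb1, the liver and muscle form, had 9.31 to 25.8 and 13.4 to 25.3 CPM, with log2 fold change 0.06. Pfkfb3, the inducible form, had 15.7 to 43.0 and 17.0 to 24.0 CPM, with log2 fold change -0.13, and the control mouse TT-586 held its highest value. Standard errors of these 3 genes were 0.20 to 0.26. Gpi1, the isomerase ahead of phosphofructokinase, had 270.4 to 321 and 248 to 301 CPM (log2 fold change -0.06).

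For glucose uptake and phosphorylation, all 4 genes had a log2 fold change below 0, from -0.22 to -0.09, and none passed. Slc2a4 encodes GLUT4, the insulin-responsive transporter. Its CPM was 539.7, 548, 599.9, 532 and 549 in control mice, against 475, 514, 465, 421 and 509 in HFD+mTAC mice, so that all HFD+mTAC mice lay below all control mice (log2 fold change -0.22, standard error 0.08, adjusted p = 0.461 from edgeR). In TPM the groups overlapped, with 8.08 to 15.2 against 5.23 to 13.0, and the deposited effective length of Slc2a4 ran from 5632 to 11874 bases, where its longest annotated transcript has 3193. Slc2a1, which encodes the basal transporter GLUT1, had 21.4 to 33.3 and 20.3 to 29.5 CPM. Hk1 had 255 to 359.9 and 209 to 293 CPM, and Hk2, the hexokinase of insulin-responsive tissues, 345 to 546 and 304 to 467.

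In lower glycolysis all 9 genes were at or below 0 in log2 fold change, from -0.29 to -0.00 with a median of -0.05, and none passed. Eno3, the muscle enolase, had the smallest p after Fbp2. Its CPM was 1607, 1785, 1611, 1468 and 1454 in control mice, against 1165, 1365, 1363, 1251 and 1369 in HFD+mTAC mice. All HFD+mTAC mice lay below all control mice, with means of 1585 ± 134 and 1303 ± 91.4 (SD, n = 5 each, log2 fold change -0.28, standard error 0.09, adjusted p = 0.352 from edgeR). In TPM the separation was lost, with 116 to 322 in control and 114 to 260.4 in HFD+mTAC mice, and the effective length of Eno3 ran from 783 to 1692 bases. Eno1, the ubiquitous enolase, was even across mice at 233 to 266 CPM.

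Gapdh, which oxidizes glyceraldehyde-3-phosphate and is often used to normalize PCR measurements, had 7962, 8855, 7308, 8199 and 7763 CPM in control mice, against 6564, 6669, 8060.5, 6996 and 7271 in HFD+mTAC mice. In 4 HFD+mTAC mice Gapdh lay below all control mice and in TT-590 among them (log2 fold change -0.17, standard error 0.09, adjusted p = 0.658 from edgeR). A set of 35 near-identical gene copies was annotated for Gapdh, of which none had more than 5.53 CPM on average, and adding them left its log2 fold change at -0.17.

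Aldoa, the muscle aldolase, and Pgam2, the muscle phosphoglycerate mutase, did not separate the groups. Aldoa had 3271, 4463, 4137, 4094 and 3943 CPM in control mice, against 3731, 3871, 3966, 3999 and 4156 in HFD+mTAC mice (log2 fold change -0.01). Pgam2 had 1042, 1119, 931, 959 and 1003 CPM in control mice, against 790.1, 869, 1203, 1052 and 957 in HFD+mTAC mice (log2 fold change -0.05). The HFD+mTAC mice of Pgam2 reached both below and above the control range. Tpi1, the triose phosphate isomerase, had 847 to 1078 and 899 to 997 CPM. Pkm, which encodes the muscle pyruvate kinases, had 1337 to 1635 and 1431 to 1549, and Pgam1, the other mutase, 113 to 147 and 98.7 to 124.

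Pgk1, phosphoglycerate kinase, depended on a gene copy. Pgk1 had 466, 336, 262, 266 and 271 CPM in control mice, against 249, 255, 303, 239 and 262 in HFD+mTAC mice (log2 fold change -0.29, standard error 0.15, adjusted p = 0.664 from edgeR). The highest value was that of TT-583. In the same mouse Pgk1-rs7, a copy whose annotated transcript is 100% identical to Pgk1 over 1255 bases, was listed at 0.0 CPM, whereas it had 62.4 to 203.8 CPM in the other 9 mice. Summed over Pgk1 and its copies, CPM was 466, 499.9, 466, 447 and 333 in control mice, against 441, 450.2, 449.8, 362 and 446 in HFD+mTAC mice. On that sum TT-583 no longer stood apart and the log2 fold change was -0.04 (adjusted p = 0.953 from edgeR), so that the value of Pgk1 alone is uncertain.

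**Figure D2:**
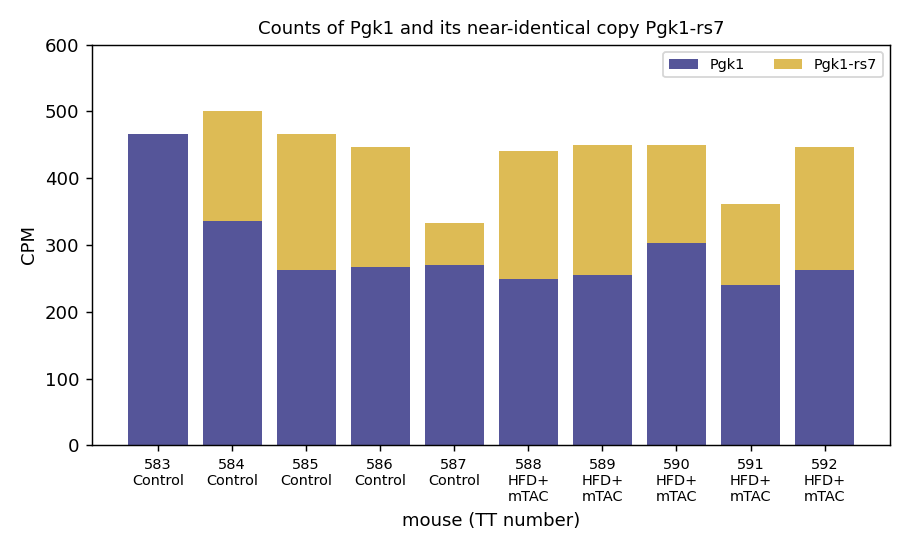
CPM of Pgk1 (dark) and its near-identical copy Pgk1-rs7 (light), stacked for each mouse (x axis, TT number and group, y axis CPM). The bar of TT-583 holds Pgk1 only, whereas all other bars are shared, and the sums range from 333 in TT-587 to 499.9 in TT-584.

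Both lactate dehydrogenase genes had lower counts in HFD+mTAC hearts without passing the test. Ldhb encodes the heart subunit, the main one here. Its CPM was 1661, 1579, 1791, 1552 and 1554 in control mice, against 1416, 1539, 1268, 1222 and 1355 in HFD+mTAC mice. The groups were apart, TT-589 at 1539 lying just below the lowest control mouse (log2 fold change -0.26, standard error 0.09, adjusted p = 0.410 from edgeR). In TPM they overlapped, with 241 to 399.5 against 195 to 299.8.

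Ldha, the muscle subunit, had the largest fold change of the pathway on the count scale and the opposite sign on the other scales. Its CPM was 79.9, 108, 83.3, 24.2 and 56.3 in control mice, against 30.2, 23.0, 15.9, 64.9 and 24.8 in HFD+mTAC mice. One control mouse, TT-586, was as low as the HFD+mTAC mice, and 1 HFD+mTAC mouse, TT-591, lay within the control range (log2 fold change -1.15, standard error 0.40, adjusted p = 0.440 from edgeR). The deposited effective length of Ldha fell into the same division: 157 to 163 bases in TT-586, TT-588, TT-589, TT-590 and TT-592, the 5 mice with low counts, and 526 to 1362 bases in the 5 others. In TPM Ldha was 26.4, 31.8, 9.00, 21.7 and 11.7 in control mice, against 29.4, 18.3, 13.4, 14.3 and 26.4 in HFD+mTAC mice. The groups overlap there, and with lengths as an offset the log2 fold change was 0.16 (standard error 0.27, adjusted p = 0.909 from edgeR). The direction of Ldha therefore depends on the scale, and whether the counts or the lengths hold the difference was not tested.

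Pyruvate enters mitochondria through the carrier made of MPC1 and MPC2. Mpc1 had 867, 966, 853, 949 and 1018 CPM in control mice, against 699.6, 836, 849.8, 796 and 732 in HFD+mTAC mice. All HFD+mTAC mice lay below all control mice, by a narrow gap between TT-590 and TT-585 (log2 fold change -0.25, standard error 0.09, adjusted p = 0.428 from edgeR). In TPM the means were 409 ± 54.1 and 330.4 ± 29.3 (SD, n = 5 each) with overlapping ranges. Mpc2 had 282 to 424 CPM in control and 269 to 397 in HFD+mTAC mice, with log2 fold change -0.15.

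No subunit of the pyruvate dehydrogenase complex passed the test. Pdha1, the alpha subunit of its first enzyme, had 1288 to 1869.9 CPM in control and 1219 to 1922 in HFD+mTAC mice (log2 fold change 0.05). Pdhb, the beta subunit, had 860.2 to 976 and 789 to 912 CPM (log2 fold change -0.12), and Dlat, the acetyltransferase, 446 to 575 and 425 to 595 (log2 fold change -0.04).

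Among the regulators of the complex, Pdk1, a kinase that switches it off, had the third smallest p of the genes with a higher value. Its CPM was 223, 222, 278, 238 and 184 in control mice, against 341, 322, 233, 212 and 297 in HFD+mTAC mice. Values of TT-588, TT-589 and TT-592 lay above all control mice, and TT-590 and TT-591 among them (log2 fold change 0.29, standard error 0.14, adjusted p = 0.627 from edgeR). Pdk1 and Pfkl thus shared the 3 high mice. Pdk2, the more abundant of the pair in TPM, had 726 to 868 and 639.8 to 882 CPM (log2 fold change -0.04). The phosphatases Pdp1 and Pdp2, which switch the complex on, had 35.7 to 57.9 and 40.6 to 62.7 CPM and 32.8 to 55.4 and 27.7 to 47.0 CPM.

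**Figure D3:**
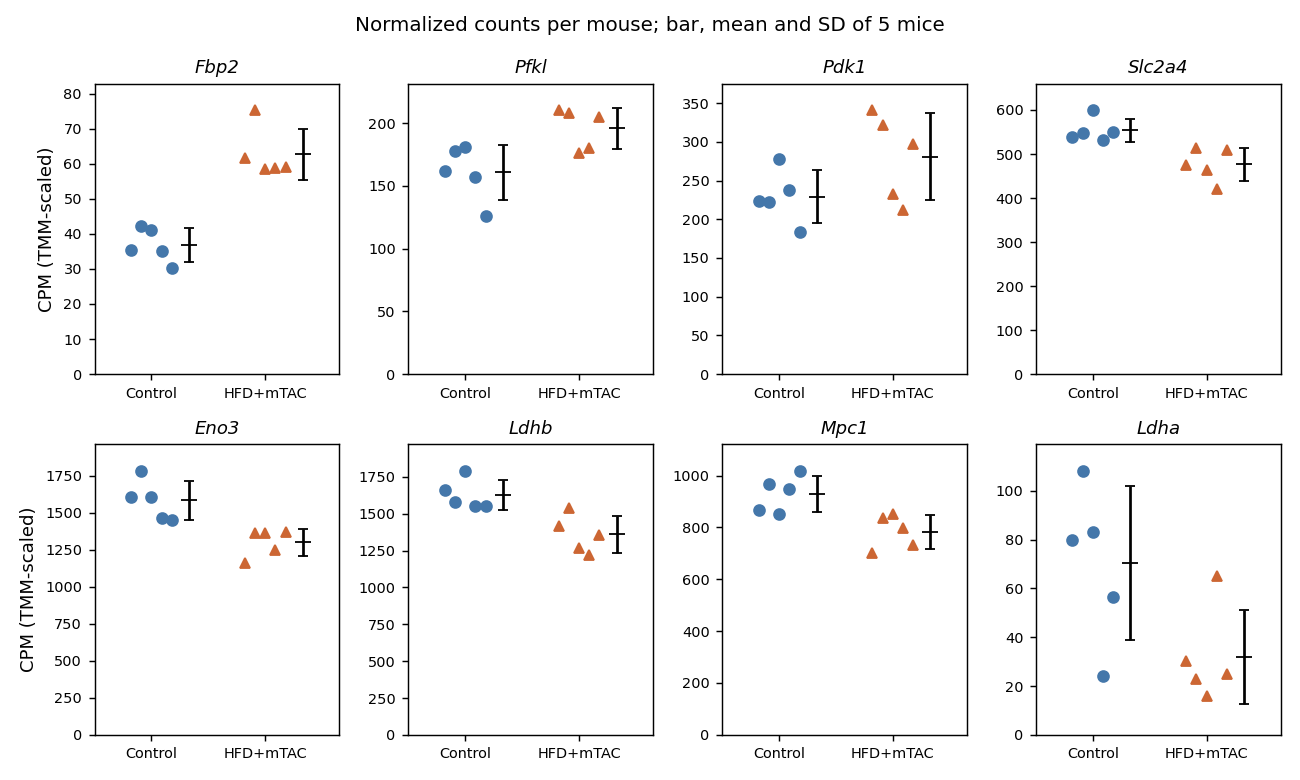
CPM per mouse (y axis, from 0) of the genes with an unadjusted p under 0.05 and of Pdk1, for control (circles) and HFD+mTAC mice (triangles), with the mean and SD of 5 mice beside the points. Fbp2 rises from 36.8 to 62.6, Slc2a4, Eno3, Ldhb and Mpc1 lie lower by a small margin without overlap, and Ldha overlaps.

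Between mice, TPM values of these genes varied more than their CPM. Over the 10 mice, the median ratio of the highest to the lowest mouse was 1.55 in CPM and 2.40 in TPM, and 30 of the 32 genes were wider in TPM. Effective lengths differed by more than 2-fold between mice in 12 of the 32 genes, against 27.0% of all genes tested. For 7 genes the length exceeded that of the longest transcript annotated in GENCODE M21 in all 10 mice, and for 17 genes in at least 1 mouse.

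Aldoa was the clearest case of uneven length among abundant genes. Its effective length was 2789, 1079, 830, 957 and 3631 bases in control mice, against 833, 838, 1136, 3528 and 936 in HFD+mTAC mice, where the longest annotated transcript has 1549. The 3 mice with lengths above that, TT-583, TT-587 and TT-591, had Aldoa TPM of 204, 147 and 157, and the 7 others 466 to 763, although their CPM of 3271, 3943 and 3999 was at most modestly lower than the 3731 to 4463 of the others. Pdk2 also varied widely, with 1522 to 5639 bases and 18.1 to 81.0 TPM. In Pdk1 and Pfkl a single mouse, TT-588, had a short length, 3265 bases for Pdk1 against 8491 to 10346 elsewhere and 3181 for Pfkl against 6296 to 7899. Its TPM was the highest for both genes, 16.1 for Pdk1 and 10.2 for Pfkl. Pdp2, with 1 annotated transcript of 5692 bases, had lengths of 15017 to 22350.

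**Figure D4:**
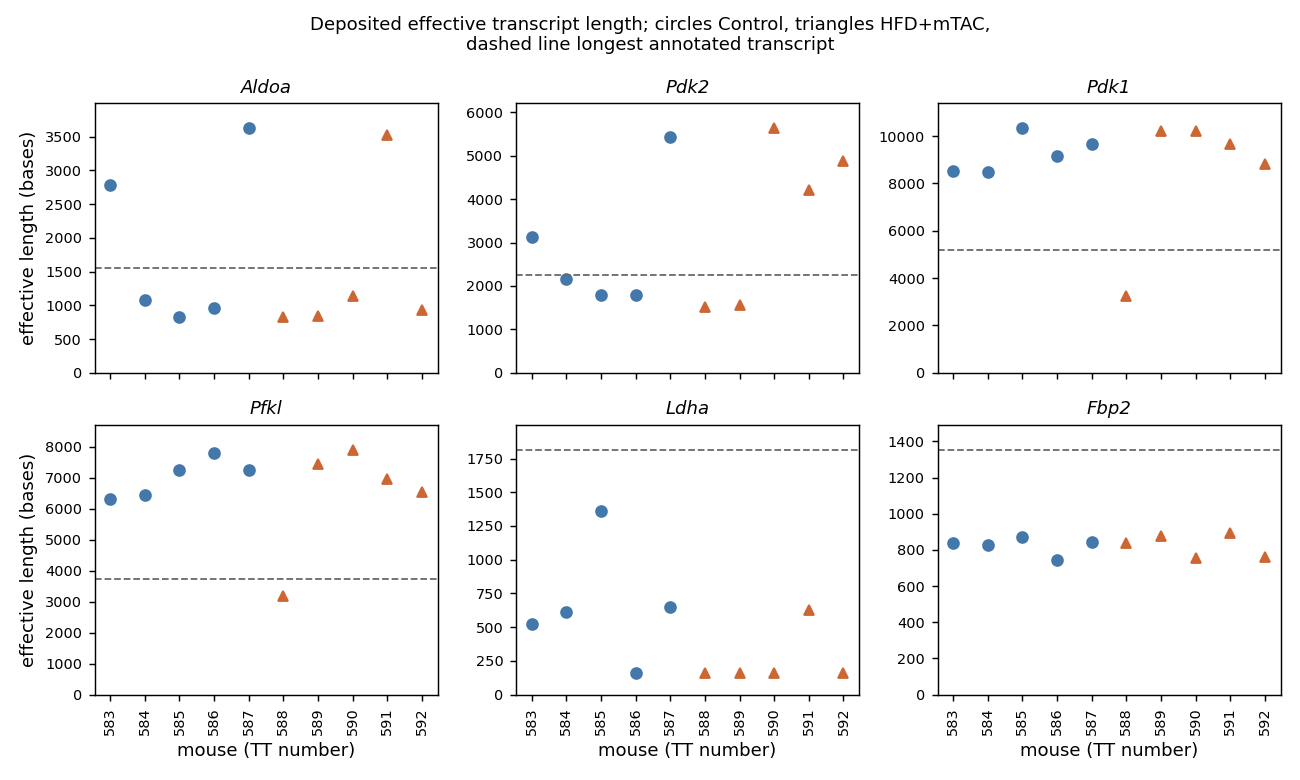
Deposited effective transcript length in bases (y axis, from 0) in each mouse (x axis, TT number) for 6 genes, with circles for control and triangles for HFD+mTAC mice and a dashed line at the longest annotated transcript. Fbp2 is even at 747 to 891 bases, whereas Aldoa is long in 3 mice and short in 7, Pdk2 is spread from 1522 to 5639 bases, Pdk1 and Pfkl have 1 short mouse, and Ldha is at 157 to 163 bases in 5 mice.

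With these lengths as an offset, 10 of the 32 genes changed the sign of their log2 fold change, as did 20.1% of all genes tested. The genes that changed sign include Ldha, Aldoa, Pfkm and Tpi1, of which the latter 3 were near 0 on the count scale. Slc2a4 (-0.31), Ldhb (-0.30), Mpc1 (-0.18) and Eno3 (-0.12) stayed below 0, and Fbp2 (0.80), Pdk1 (0.80) and Pfkl (0.60) stayed above, with none of the 32 passing (smallest adjusted p = 0.0844 from edgeR, for Fbp2).

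**Figure D5:**
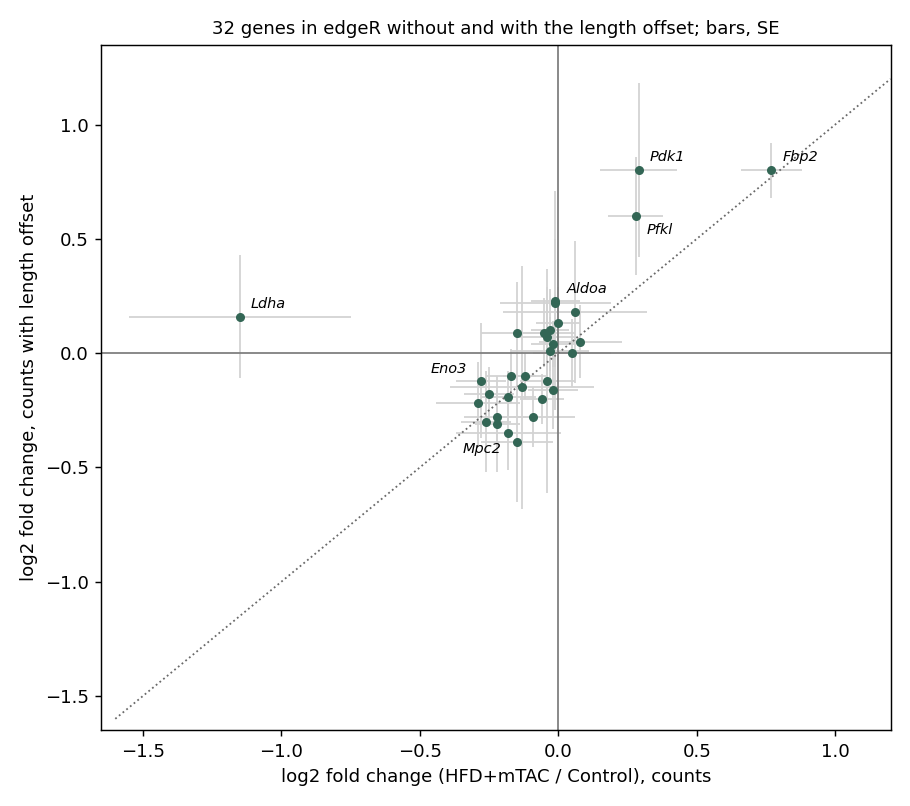
Log2 fold change (HFD+mTAC over control) of the 32 genes in edgeR on counts (x axis) and with effective lengths as an offset (y axis), with standard errors as bars and a dotted line of equal values. Fbp2 lies on the line at 0.77 and 0.80, Ldha moves from -1.15 to 0.16, and Pdk1 and Pfkl lie above the line.

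The balance between isoenzymes was compared as shares of TPM within a mouse, 11 shares in all with adjustment over them. None had an adjusted p under 0.05. The smallest p that the exact permutation test can give, 0.00794, becomes 0.0873 over 11 shares when 1 share holds it. A single share with groups fully apart could thus not pass by itself, and the lack of a call says little. In TPM the smallest p beside that of Fbp2 against Pfkm was for the phosphatase pair: Pdp1 made up 81.5, 80.5, 82.2, 80.2 and 84.1% of Pdp1 and Pdp2 TPM in control mice, against 84.8, 88.1, 86.5, 84.6 and 83.6% in HFD+mTAC mice. TT-592 at 83.6% lay below the control mouse TT-587 at 84.1% (two-sided exact permutation test, p = 0.0159, 0.0873 after adjustment). In counts the Pdp1 share was 53.9% ± 4.04 and 58.4% ± 3.32 (SD, n = 5 each, two-sided exact permutation test, p = 0.0794, 0.175 after adjustment), and the TPM share rests on Pdp2 lengths far above its annotated transcript. The smaller p in counts belonged, beside Fbp2 against Pfkm, to Eno3 (86.1% ± 0.928 and 83.8% ± 1.16) and Pdk2 (77.8% ± 1.53 and 73.6% ± 2.49), each with p = 0.0159 and 0.0582 after adjustment in the same exact permutation test. Pdk2 made up 92.1% ± 3.17 of Pdk1 and Pdk2 TPM in control and 86.8% ± 4.73 in HFD+mTAC mice, and Ldha 5.82% ± 2.52 and 8.14% ± 3.64 of Ldha and Ldhb TPM, although in counts the order was the other way, with 4.09 and 2.33%. Hk2 held 88.5% of hexokinase TPM in both groups, and 58.4 and 60.4% of hexokinase counts.

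The wider pathway was covered by 92 further genes, of which 81 were tested. None passed in edgeR at an adjusted p under 0.05. At an unadjusted p under 0.05 there were 4 higher and 4 lower genes, where 4.54% and 3.72% of all genes tested passed in these directions, and 8.26% in either, and the median log2 fold change was 0.00.

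Of the 13 tested genes of lactate and pyruvate handling, 2 had an unadjusted p under 0.05, where 8.26% of all genes did. Pdk4, the kinase of pyruvate dehydrogenase induced by fatty acids and fasting, had 503, 651, 473, 325 and 268 CPM in control mice, against 851, 647, 659.7, 331 and 875 in HFD+mTAC mice. Values of TT-588, TT-590 and TT-592 were above all control mice and TT-591 near the control minimum (log2 fold change 0.60, standard error 0.27, adjusted p = 0.596 from edgeR). Me1, the cytosolic malic enzyme, had 189.9, 175, 189, 194 and 137 CPM in control mice, against 260.0, 267, 211, 183 and 229 in HFD+mTAC mice (log2 fold change 0.38, standard error 0.12, also without a call). The other subunits of the complex and the lactate transporter did not pass, with log2 fold changes of -0.02 for Pdhx, -0.08 for Dld and -0.08 for Slc16a1.

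Among other glycolytic and gluconeogenic enzymes 8 of 14 genes were tested, with a median log2 fold change of -0.22. Pcx, pyruvate carboxylase, had 33.3 to 49.5 and 22.1 to 35.7 CPM (log2 fold change -0.41, adjusted p = 0.416 from edgeR), and the groups overlapped. Fbp1, the liver fructose bisphosphatase, was at most 0.205 CPM in any mouse and Pfkfb4 at most 1.54, and neither was tested, so that the rise of fructose bisphosphatase transcripts concerned Fbp2. Aldoc and Eno2, the brain forms, were at most 0.775 and 2.67 CPM.

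In glycogen metabolism all 19 listed genes were tested, with a median log2 fold change of 0.01. Stbd1, a glycogen-binding protein, had 17.0 to 25.4 and 11.3 to 17.6 CPM (log2 fold change -0.40), and Phkg1, the muscle catalytic subunit of phosphorylase kinase, 24.3 to 31.3 and 13.7 to 28.5 (log2 fold change -0.44). In the pentose phosphate, hexosamine and glycerol branches 18 genes were tested, with a median of -0.02. There H6pd, the hexose-6-phosphate dehydrogenase of the endoplasmic reticulum, had 38.2 to 51.9 and 48.9 to 62.1 CPM (log2 fold change 0.30). None of the 7 tested genes of hexose transport and first steps had an unadjusted p under 0.05.

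Of 16 transcription factors and signals known for glycolytic genes, 1 had groups without overlap in CPM, where 1.96% of all genes did. That gene, Mlxip, which encodes the glucose-sensing factor MondoA of muscle, had 56.7, 52.6, 56.6, 54.9 and 57.6 CPM in control mice, against 73.1, 68.0, 60.1, 64.0 and 62.0 in HFD+mTAC mice. All HFD+mTAC mice were above all control mice by a small margin (log2 fold change 0.23, standard error 0.07, adjusted p = 0.377 from edgeR).

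Within a group, the low and high values of the 32 genes fell on few mice. TT-587 had the lowest CPM of the control mice for 15 of the 32 genes and TT-591 the lowest of the HFD+mTAC mice for 15. TT-584 and TT-585 had the highest control value for 11 genes each, and TT-589 the highest HFD+mTAC value for 11. Some of these mice also had extreme totals. TT-587 had the lowest total of all, 34.2 M, TT-585 the highest of all, 53.7 M, and TT-589 the highest of the HFD+mTAC mice, 46.7 M. TT-591 at 39.6 M and TT-584 at 43.6 M were not at the extremes of their groups. The part of depth was not tested.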

How the data were processed

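RNA-seq of left ventricle from 5 control and 5 HFD+mTAC mice was analysed, with groups taken from the sample labels. Per the study's methods, polyadenylated RNA was made into stranded libraries, fastp trimmed the reads, salmon estimated transcript counts against a GENCODE set for GRCm38, and these were summed to genes with tximport. The submitters' processing notes list Salmon 1.6.0 and the build hg38, which is a human build, and the labels and methods differ on read length. The authors deposited expected counts (20.1% of values not whole, no normalization), TPM and other values, the average effective transcript lengths in bases. TPM is relative within each mouse and inherits those lengths, which counts do not. Levels, ranges, overlaps and permutation tests in TPM used the deposited values, not rescaled over the tested genes. For limma, TPM was rescaled in each mouse to a common total over the tested genes.

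Symbols were matched to GENCODE M21 of GRCm38: of 29564 listed genes 27862 matched directly, 862 through an older symbol and 840 did not. Protein-coding genes outside the mitochondrial genome with at least 1 count in 9 of 10 mice were tested (13299). Counts were rounded and fitted by edgeR 4.0.16 under R 4.3.3 (quasi-likelihood test after TMM, no covariate, Benjamini-Hochberg adjusted p under 0.05, common dispersion 0.0422). Shares within a mouse were compared by two-sided exact permutation tests. The edgeR, DESeq2 and limma fits were tested on simulated counts.

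Alternatives were DESeq2 1.42.0, its size factors in edgeR, limma 3.58.1 on log2(TPM + 1) and log2(TPM + 0.1), other filters, all gene types, lengths as an offset and the omission of each mouse. Adding near-identical copies (at least 98% identity over 80% of the copy and 200 bases) was chosen after seeing the data. The 32 genes, the lists and the tests were chosen with earlier results of these data known. Values in every mouse are given for genes with an unadjusted p under 0.05, groups that do not overlap, the 6 highest mean TPM or the 3 smallest p in each direction. Pgk1 and Pfkm, the TPM values of Fbp2 and Ldha and the length examples were chosen after their values were seen. Tigar, Oga and Adgre1 of the lists were not analysed here, and 1 gene that the naming rule selects is not reported here. Motifs were searched in RefSeq promoters of GRCm38.p6.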

Additional observations from a re-analysis of the deposited data

Results flagged for a closer look

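Among 86 sets of 5 values (a gene's CPM or a share in one group), 4 held a mouse whose gap to the nearest other mouse exceeded Dixon's 95% critical value as a share of the range, where chance gives about 1 set in 20. In control mice these were Slc2a4 in TT-585 (599.9 CPM, gap 0.756 of the range) and Pfkfb3 in TT-586 (43.0 CPM, gap 0.782). In HFD+mTAC mice these were Fbp2 in TT-589 (75.3 CPM) and the Eno3 share of Eno1 and Eno3 TPM in TT-589 (88.7%, gap 0.821). Without TT-589 the log2 fold change of Fbp2 was 0.68 (adjusted p = 0.0609 from edgeR).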

How the results depend on the processing

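Calls depended on the tool and on the number of mice. Of all genes tested, 8 passed in edgeR, 120 in DESeq2, 1 in limma with either pseudocount and 1 with the length offset. Of the 32 genes, 1 passed in edgeR and 0 in limma with either pseudocount or with the length offset. Omitting 1 mouse at a time gave 1 to 9 genes in all and 0 to 1 of the 32. Fbp2 kept its direction under every alternative and lost its call in limma, with the length offset and in 9 of 10 omissions. The count of 0 among the 92 neighbouring genes was the same under all alternatives run.

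Directions that reversed belonged to genes without a call. In limma on log2(TPM + 1), on log2(TPM + 0.1) and with the length offset in edgeR, in that order, the log2 fold changes were 0.10, 0.10 and 0.09 for Slc2a1, 0.05, 0.05 and 0.01 for Pfkm, 0.17, 0.18 and 0.22 for Pfkfb2, 0.40, 0.40 and 0.23 for Aldoa, 0.15, 0.15 and 0.13 for Tpi1, 0.11, 0.11 and 0.09 for Pgam2, 0.14, 0.14 and 0.10 for Eno1, 0.08, 0.08 and 0.04 for Pkm, 0.25, 0.26 and 0.16 for Ldha, 0.09, 0.09 and 0.07 for Dlat and 0.23, 0.23 and 0.32 for Pdhx. In limma alone they were 0.13 and 0.23 for Pfkfb3 and, with the smaller pseudocount, 0.05 for Aldoc. From counts in place of TPM, the share of Ldha differed by -1.77 percentage points and that of Mpc1 by -1.38. The cause was not tested.

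Over the omissions of 1 mouse, log2 fold changes that crossed 0 ranged from -0.16 to 0.01 for Hk2, -0.11 to 0.04 for Pfkm, -0.05 to 0.04 for Pfkp, -0.10 to 0.26 for Pfkfb1, -0.20 to 0.12 for Pfkfb2, -0.24 to 0.22 for Pfkfb3, -0.08 to 0.03 for Aldoa, -0.04 to 0.05 for Tpi1, -0.14 to 0.01 for Pgam2, -0.06 to 0.01 for Pkm, -0.04 to 0.14 for Pdha1, -0.11 to 0.01 for Dlat, -0.09 to 0.02 for Pdk2, -0.02 to 0.15 for Pdp1 and -0.10 to 0.05 for Pdhx. Differences in share ranged from -0.672 to 0.714 points for Hk2, -2.52 to 1.116 for Pfkm and -5.03 to 0.205 for Pfkfb2.

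No paired analysis was possible because the groups share no replicate number. With 5 mice a group and a median standard error of 0.11 for the 32 genes, small changes could be missed, and a p that misses the threshold does not show equal levels. Gene copies, the annotation release and the length estimates limit single values, most for Pgk1, Ldha and Aldoa.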
